A study of Mus musculus with 20 samples.

Results

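Il1b encodes the cytokine interleukin-1β, and Il1bos is the name of an antisense gene whose span meets that of Il1b on the other strand. The reads assigned to these 2 of 46329 gene rows were followed in 20 RNA-seq libraries of mouse colorectal tissue. Both rows were found by their symbols in every library. They were chosen by the measured genotype difference of Il1bos in tumors, which is therefore described below with no test. All mice were C57BL/6J, 100 days old and were ApcMin/+ and Erbb2f/f, that is, heterozygous for a mutation of Apc that leads to intestinal tumors and homozygous for a floxed Erbb2 gene. Erbb2-deficient mice also carried Tg(Vil1-cre), whose Vil1 promoter drives cre in the intestinal epithelium and not in the immune cells or stroma of the same tissue, and control littermates had no cre. The groups were Erbb2-deficient tumors, control tumors, Erbb2-deficient adjacent tissue and control adjacent tissue, with 5 libraries each. The genotypes differ by the cre transgene as well as by Erbb2 loss. The labels call the replicates biological but do not say whether libraries of 1 number share a mouse.

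Interleukin-1β is made mainly by monocytes, macrophages, neutrophils and dendritic cells as an inactive precursor. Inflammasomes activate caspase-1, which cleaves the precursor so that it can be released. The cytokine binds the receptor Il1r1 with its partner Il1rap, and through Myd88, the IRAK kinases and NF-κB it induces chemokines, prostaglandin synthesis and proteases. Its sister cytokine Il1a uses the same receptor, Il1rn blocks that receptor and Il1r2 is a decoy. Interleukin-1β is known in the colon for its part in colitis and in tumor-associated inflammation.

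The place of the pair is shown first, because the results turn on which of the 2 rows holds the reads. In GENCODE M21 (GRCm38, another build than the mm39 of the counts) Il1b lies on the minus strand of chromosome 2 and its coding transcript has 7 exons. The spans of Il1b and Il1bos share 1243 bases, but the Il1bos exons share no base with the exons of the coding Il1b transcript. The only shared exon stretch is the first exon of Il1bos, which lies inside an intron-retaining Il1b transcript and holds 25 bases. It is printed on the plus strand at chr2:129369897-129369921, followed by the same bases as Il1b reads them on the minus strand.
Il1bos first exon: agtctagaagcagattctgggccag
Il1b intron-retaining transcript: ctggcccagaatctgcttctagact
The rest of Il1bos, 2955 of its 2980 exon bases, lies upstream of the Il1b start, and the nearest of these exons begins 1655 bases before that start. The window around the Il1bos start (RefSeq, GRCm38.p6, chr2:129369652-129369951, plus strand) crosses the third coding-transcript exon of Il1b, whose 49 bases are in capitals in antisense orientation.
Il1bos start window: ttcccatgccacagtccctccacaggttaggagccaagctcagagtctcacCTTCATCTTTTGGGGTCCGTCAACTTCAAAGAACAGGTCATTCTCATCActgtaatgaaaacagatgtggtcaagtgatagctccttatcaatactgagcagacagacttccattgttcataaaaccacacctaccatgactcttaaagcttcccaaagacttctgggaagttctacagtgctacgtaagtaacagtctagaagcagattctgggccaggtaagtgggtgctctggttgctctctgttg
The 250 bases before the Il1b start (RefSeq, GRCm38.p6, chr2:129371140-129371389, minus strand) are shown because Cebpb, described below, is among the rows most like Il1bos. Capitals mark letters that match the C/EBP motif TTNNGNAAT at -91 and the core promoter motif TATAAA at -31, with both strands searched.
Il1b upstream window: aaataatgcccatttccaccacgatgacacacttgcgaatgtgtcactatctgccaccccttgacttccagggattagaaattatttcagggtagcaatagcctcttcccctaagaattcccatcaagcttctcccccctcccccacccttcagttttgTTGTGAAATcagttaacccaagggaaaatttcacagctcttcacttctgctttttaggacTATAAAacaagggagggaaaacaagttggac
Of 32851 promoter windows of this length, 10.2% hold TTNNGNAAT and 12.4% hold TATAAA. Letters for NF-κB (3 G, 5 bases of any kind and 2 C) and AP-1 (TGA, any base, TCA) were not found in the Il1b window, against 45.8% and 6.75% of all windows. The letters do not overlap one another, and a match is a description of sequence only.

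**Figure D1:**
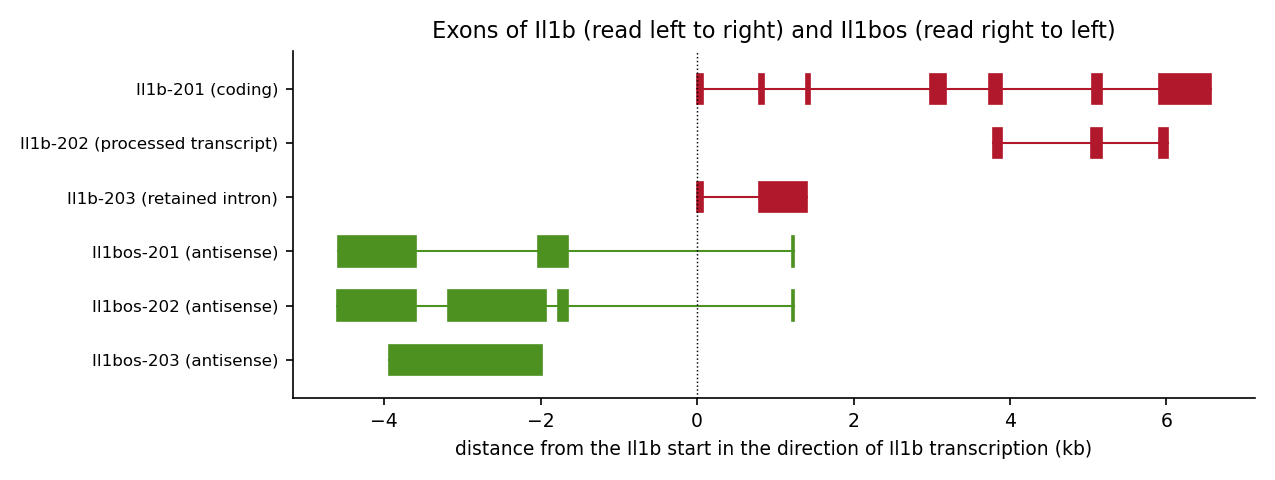
Exon maps of the 3 Il1b transcripts (red, read left to right) and the 3 Il1bos transcripts (green, read right to left) by distance from the Il1b start in kb. Boxes are exons and lines introns. The Il1bos exons sit to the left of the Il1b start except the narrow first exon, which falls within the wide exon of the intron-retaining Il1b transcript.

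The libraries were shallow over genes. Reads assigned to genes numbered 1071737 to 1944309 per library, and 78.6% to 85.1% of the reads in a file fell on no feature. Counts were scaled with TMM to CPM over the tested rows (normalized CPM), which are levels per library and are not divided by gene length. Control tumor 2 stood apart, with a median Spearman correlation of 0.636 to its own group, against at least 0.820 in the other control tumors. It also had the highest summed B and T cell markers and the lowest summed epithelial markers. Control tumor 3 had the most smooth muscle marker counts among the tumors. The Erbb2 row did not separate the tumors by genotype at this depth, with 0.720 to 8.19 normalized CPM in Erbb2-deficient tumors and 0.908 to 6.98 in control tumors, so genotype names are those of the labels.

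Il1bos was high in all 5 Erbb2-deficient tumors and low elsewhere. Its normalized CPM was 16.6, 15.7, 23.7, 16.4 and 10.8 in Erbb2-deficient tumors 1 to 5. Control tumors 1 to 5 had 2.09, 0, 6.44, 7.62 and 3.39. The lowest Erbb2-deficient tumor lay above the highest control tumor, and the control tumors spread widely for their level. Adjacent tissue held 1.16, 0.831, 2.38, 2.27 and 3.31 in Erbb2-deficient mice 1 to 5. Control adjacent tissue held 0.987, 0.840, 0, 0 and 0. Every Erbb2-deficient adjacent library thus had at least 1 Il1bos read, and 3 of 5 control adjacent libraries had none. A count of 0 allows up to 2.29 to 2.69 normalized CPM in those 3 libraries and up to 2.72 in control tumor 2. These limits, like the intervals below, cover counting error only.

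The reads behind these levels were few. Il1bos had 114 counts in the Erbb2-deficient tumors, 22 in the control tumors, 14 in Erbb2-deficient adjacent tissue and 2 in control adjacent tissue. Group means were 16.6 ± 4.62, 3.91 ± 3.12, 1.99 ± 0.999 and 0.365 ± 0.503 normalized CPM in that order (SD, n = 5 each). The order ran from Erbb2-deficient tumors down to control adjacent tissue. Control tumors and Erbb2-deficient adjacent tissue, next to each other in it, overlapped. So did Erbb2-deficient and control adjacent tissue.

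**Figure D2:**
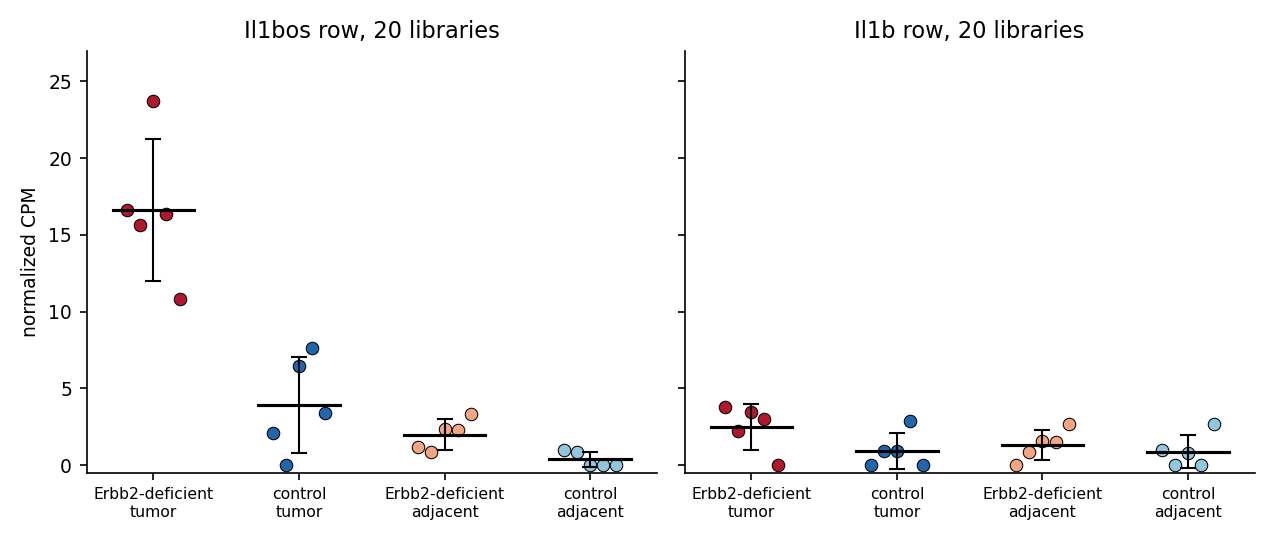
Normalized CPM of the Il1bos row (left panel) and the Il1b row (right panel) in 20 libraries, on a shared axis. Points are libraries, bars the group mean and SD (n = 5). The 5 Erbb2-deficient tumors sit between 10.8 and 23.7 for Il1bos, above every other library, while all groups of Il1b lie below 4 normalized CPM.

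In tumors, the contrast that picked the pair, Il1bos averaged 16.6 normalized CPM in Erbb2-deficient mice and 3.91 in controls. The fitted log2 fold change was 2.09 ± 0.51 (SE), or 4.26-fold, and it is a description only. As a difference of mean log2 of CPM + 1 it was 2.15, and 1.84 without control tumors 2 and 3. The ratio of summed counts, scaled for depth, was 4.44, with an exact 95% counting interval of 2.80 to 7.37. Of all 7119 rows tested, 0.927% had every Erbb2-deficient tumor above every control tumor, as Il1bos did.

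Il1bos rose in tumors relative to adjacent tissue over both genotypes. The log2 fold change, averaged over the genotypes with equal weight, was 3.07 ± 0.49 (SE), or 8.38-fold, with an adjusted p of 5.21e-05 by edgeR's quasi-likelihood test with Benjamini-Hochberg adjustment. Of the 7119 rows, 41.9% passed in this comparison and 21.0% rose, so passing it was common, and Il1bos ranked 496th of 7119 by p. It passed the count filter through the Erbb2-deficient tumors alone. The tumors that picked the pair also enter this comparison, so its p-values are not free of that choice. With no filter the log2 fold change was again 3.07, with an adjusted p of 2.41e-07. An exact permutation of tissue labels within genotype gave a two-sided p of 0.000189 for the mean difference of 9.10 CPM, where the smallest possible p is 3.15e-05.

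The tissue difference was seen within each genotype. In Erbb2-deficient mice Il1bos averaged 16.6 normalized CPM in tumors and 1.99 in adjacent tissue, and no tumor overlapped an adjacent library, as in 11.9% of all rows tested. The scaled count ratio there was 8.37 (exact 95% interval 4.79 to 15.8). In control mice it averaged 3.91 in tumors and 0.365 in adjacent tissue, with a ratio of 10.8 (2.66 to 94.8) and overlapping libraries. These 2 comparisons use the tumors that picked the pair and were not tested separately. In bulk tissue, more cells that carry the RNA and more RNA in each cell cannot be told apart.

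In adjacent tissue Il1bos did not pass the genotype test. The contrast that picked the pair used no adjacent library, but the pair was chosen with earlier results of these data known. The row also came through the count filter by the Erbb2-deficient tumors alone, so this test is not fully apart from that choice. The log2 fold change of Erbb2-deficient over control was 2.23 ± 0.89 (SE), or 4.68-fold, with an unadjusted p of 0.0209 and an adjusted p of 0.800 by edgeR's quasi-likelihood test with Benjamini-Hochberg adjustment. No row passed here (0 of 7119, 0.0%), while 418 had an unadjusted p under 0.05 and DESeq2 called 5. The ratio rests on 14 and 2 counts and was 5.74 (exact 95% interval 1.32 to 52.0). The direction was that of the tumors, in libraries that held 0 to 5 Il1bos reads.

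The Il1b row was low in every group. Its normalized CPM was 3.78, 2.24, 3.49, 2.98 and 0 in Erbb2-deficient tumors 1 to 5. It was 0, 0.908, 0.920, 2.86 and 0 in control tumors 1 to 5. Groups overlapped, and Erbb2-deficient tumor 5 had no Il1b read, although a 0 there allows up to 2.16 CPM. In adjacent tissue it was 0, 0.831, 1.59, 1.51 and 2.65 in Erbb2-deficient mice. It was 0.987, 0, 0.765, 0 and 2.67 in control mice. In all, Il1b had 17, 5, 9 and 5 counts in Erbb2-deficient tumors, control tumors, Erbb2-deficient adjacent tissue and control adjacent tissue.

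Il1b fell under the count filter and was tested by exact permutation of normalized CPM, two-sided, in 2 comparisons. Tumors exceeded adjacent tissue by a mean of 0.617 CPM (permutation p = 0.266, adjusted 0.531 by Benjamini-Hochberg over the 2 comparisons). Erbb2-deficient adjacent tissue exceeded control adjacent tissue by 0.431 CPM (exact permutation p = 0.540, adjusted 0.540, smallest possible 0.00794). Neither difference passed. The scaled count ratio of Erbb2-deficient to control tumors, again a description, was 2.91 (exact 95% interval 1.03 to 10.1), against 4.44 for Il1bos with an interval that overlaps it. A change of the cytokine row of the size seen for Il1bos is within what these counts allow in the tumors.

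Most reads of the pair lay on Il1bos. Shares are of reads with no scaling for length, and Il1bos has 2980 exon bases, against 1356 in the coding Il1b transcript. Il1bos held 152 of the 188 reads on both rows, or 80.9% (exact 95% interval 74.5 to 86.2). It had more reads than Il1b in 14 of 20 libraries and tied with it in 3. The share was 87.0% in Erbb2-deficient tumors (80.0 to 92.3) and 81.5% in control tumors (61.9 to 93.7), with intervals that overlap. It was 60.9% in Erbb2-deficient adjacent tissue (38.5 to 80.3) and 28.6% in control adjacent tissue (3.67 to 71.0). Over all tumors it was 86.1% (136 of 158) and over all adjacent libraries 53.3% (16 of 30). An antisense row ahead of its host was not unusual in these files. Of 142 pairs named as a gene and its opposite strand with at least 100 counts, 52.1% had more counts on the antisense row. The strand setting of the counting step is not given in the sources used here. Pcsk7, opposite Tagln and Rnf214, averaged 24582.5 and 49163.7 normalized CPM in Erbb2-deficient and control adjacent tissue, against 442.6 and 464.1 for Tagln. The reverse held for Gm15179, at 8.04 and 10.8, against 65.3 and 75.7 for Des opposite it. Rows can thus hold reads of the opposite strand, and a gene's own row need not report its mRNA. In GENCODE M21, on another build than the counts, no Il1bos exon shares a base with the coding Il1b transcript. At most 25 bases are shared with the intron-retaining one. The annotation used for counting is not named, and what part of the Il1bos reads came from Il1b RNA was not tested.

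Il1a, the sister gene, gave a second pair of the same kind next to Il1b. Gm14023, the row opposite it, shares with it 222 coding bases of the 229 in exon 4 of Il1a, on the minus strand at chr2:129306471-129306692 (GENCODE M21, GRCm38). The shared stretch is printed in the Il1a direction because, unlike at Il1bos, coding bases are common to both rows.
Il1a stretch shared with Gm14023: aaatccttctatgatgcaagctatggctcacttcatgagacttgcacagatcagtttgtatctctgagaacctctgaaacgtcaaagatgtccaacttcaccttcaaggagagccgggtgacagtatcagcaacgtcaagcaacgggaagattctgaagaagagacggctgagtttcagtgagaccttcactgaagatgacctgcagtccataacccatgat
Gm14023 had 26.4, 53.7, 142.5, 72.9 and 9.37 normalized CPM in Erbb2-deficient tumors 1 to 5. It had 13.3, 17.2, 9.20, 36.2 and 22.9 in control tumors 1 to 5, so the genotypes overlapped. Adjacent libraries of both genotypes had at most 5.56. Gm14023 rose in tumors relative to adjacent tissue by 4.54 ± 0.56 (log2, SE) with an adjusted p of 3.50e-06, while the difference between genotypes in tumors, 1.63 ± 0.60 (SE), did not pass (adjusted p = 0.291), both by edgeR. The Il1a row itself was level, at means of 22.0, 22.4, 20.8 and 24.4 normalized CPM in Erbb2-deficient tumors, control tumors, Erbb2-deficient adjacent tissue and control adjacent tissue. Its tumor to adjacent log2 difference was -0.02 ± 0.19 (SE, edgeR adjusted p = 0.933).

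**Figure D3:**
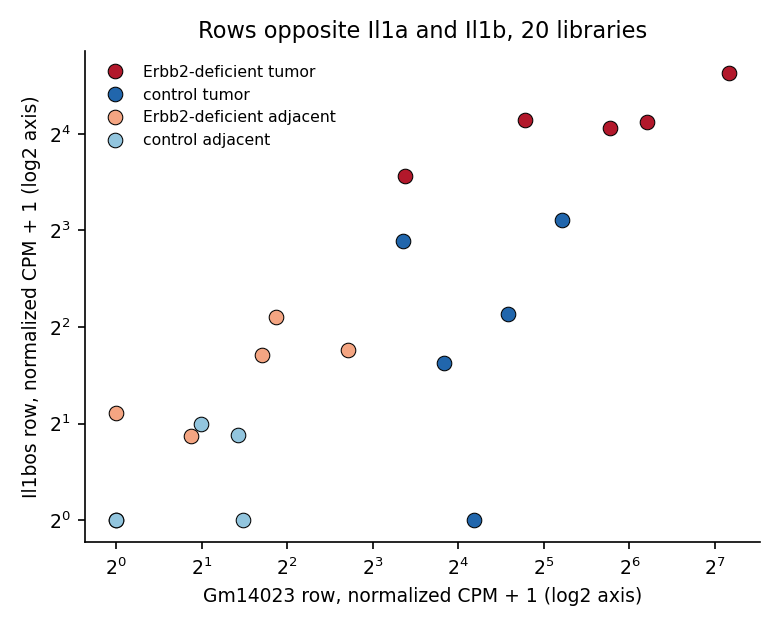
Il1bos against Gm14023, the rows opposite Il1b and Il1a, in normalized CPM + 1 on log2 axes. Each point is 1 of 20 libraries, colored by group. Tumors lie to the right of all adjacent libraries, and the genotypes of the tumors overlap on the Gm14023 axis.

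Libraries with more Gm14023 also had more Il1bos, with a Pearson r of 0.82 and a Spearman rho of 0.80 over 20 libraries on log2 CPM, as a description. The 20 points share the group differences, and the r of deviations from group means was 0.42. Gm14023 ranked 41st of 7118 rows by this likeness, where the median r was 0.017, and Il1a had an r of 0.03. Other rows within 150 kb of the pair were nearly empty. Ckap2l, a mitotic spindle gene, had 27 counts in all libraries together.

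The 10 rows most like Il1bos over the 20 libraries had r between 0.85 and 0.91, as a description, and since they were picked for following Il1bos their own tumor levels are no separate result. Closest was Pilrb2, a paired immunoglobulin-like receptor gene opposite Gm43495, with r = 0.91, rho = 0.88 and 0.72 for deviations from group means. It averaged 13.6 normalized CPM in Erbb2-deficient tumors and 5.65 in control tumors, against 0.513 in Erbb2-deficient and 0 in control adjacent tissue. Next came Gm19610, opposite Ereg, which encodes the ERBB ligand epiregulin, with r = 0.89 and means of 70.2, 14.6, 6.83 and 4.82 in the same order of groups. Cebpb, a C/EBP transcription factor gene, had r = 0.86 and means of 22.1, 11.9, 8.59 and 5.80. Its row lies opposite Tmem189, and which gene it reports was not tested. The others were Gm46289, Smc3 (a cohesin subunit), Fgfrl1 (an FGF receptor-like gene), Gm41074, and the rows opposite Dio2, Prox1 and Furin, named Gm26512, Prox1os and Gm44851.

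Among genes of the interleukin-1 system, few rows held enough reads to be tested. Of 80 listed genes other than Il1b, 12 passed the count filter, and 2 rose, 2 fell and 8 did not pass in tumors relative to adjacent tissue. Those shares, 16.7% in each direction, are near the 21.0% and 20.9% of all rows that rose and fell. Their median log2 difference was 0.08, against 0.005 over all rows tested. Of 9 rows opposite listed genes, 5 were tested, Gm14023 rose, Numa1 opposite Il18bp fell by 0.85 ± 0.24 on the log2 scale (SE, adjusted p = 0.00797) and 3 did not pass, of which Psd, opposite Nfkb2, passed without control tumor 3 (log2 difference 0.51, adjusted p = 0.0266). None of these rows passed in either genotype comparison by edgeR or DESeq2. In tumors 0 of 7119 rows (0.0%) passed by edgeR, with 817 at an unadjusted p under 0.05, and DESeq2 called 26. At an unadjusted p under 0.05 stood 3 of the 12 pathway rows in tumors and 0 in adjacent tissue. Cxcl5 and Nfkbia were higher in Erbb2-deficient tumors (log2 differences 1.49 and 1.53). Aim2 was lower (-2.35), with most of its control tumor counts in control tumor 2. The tumor comparison is the one that picked the pair.

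Of the other ligands, Il18 alone passed the test by its own row. Il18, a cytokine also released after caspase-1 cleavage, fell by 1.36 ± 0.45 on the log2 scale in tumors (SE, edgeR adjusted p = 0.0206), a call lost without control adjacent library 5 (adjusted p = 0.0546). Its summed counts were 50 in Erbb2-deficient tumors and 41 in control tumors, against 161 in Erbb2-deficient and 88 in control adjacent tissue. Il1rn, the receptor antagonist, had 10, 2, 16 and 4 counts in the 4 groups in the order Erbb2-deficient tumors, control tumors, Erbb2-deficient adjacent, control adjacent. The 3 members of the interleukin-36 subgroup, its antagonist and Il1f10 were at 0 in every library, and Il18bp, which binds interleukin-18, did not pass (log2 difference 0.11).

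No receptor row could be tested under the filter. Il1rl1, the receptor for interleukin-33, had 24 counts in Erbb2-deficient tumors and 10 in control tumors, against 2 in Erbb2-deficient and 0 in control adjacent tissue. Il1r1 had 7, 7, 6 and 4 counts in the same order of groups. The row of the signalling receptor was thus at the edge of detection everywhere, which need not hold for its mRNA. The decoy Il1r2 had 7, 3, 0 and 1. Among genes for release, Casp1, which encodes the enzyme that cleaves the precursor, had 21 counts in Erbb2-deficient tumors and 13 in control tumors, against 55 and 34 in the adjacent tissue of those genotypes. Aim2, a sensor of DNA, did not pass in tumors relative to adjacent tissue (log2 difference 0.88), and 152 of its 166 counts in control tumors were in control tumor 2, without which the difference was -0.77 (edgeR adjusted p = 0.0717). Pycard, the inflammasome adaptor, did not pass (log2 difference -0.81), but without control tumor 3 it was -1.73 with an edgeR adjusted p of 0.00261. Nlrp6, another sensor, did not pass (0.05). Nlrp3, a sensor of cell damage, had 4 counts in Erbb2-deficient tumors and 0 in the other groups.

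In the signalling list Ikbkg, the regulatory subunit of the IκB kinase, rose by 1.09 ± 0.37 (log2, SE, edgeR adjusted p = 0.0216), a call that was lost with no count filter (adjusted p = 0.0741). Nfkb2, an NF-κB precursor, fell by 0.89 ± 0.16 on the log2 scale (SE, edgeR adjusted p = 0.000148). Both rows lie opposite exons of other genes, G6pdx for Ikbkg and Psd and AC114539.1 for Nfkb2. Which gene each of these rows reports was not tested. Nfkb1 and Irak3 did not pass (log2 differences 0.68 and -0.28), and Irak3 lies opposite Gm47009 and Tmbim4. Among target genes Cxcl5, a chemokine for neutrophils, rose by 1.36 ± 0.37 (log2, SE, edgeR adjusted p = 0.00566), and Nfkbia, the inhibitor that NF-κB induces, did not pass (0.26). Cxcl5 ranked 47th in likeness to Il1bos, with r = 0.82.

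**Figure D4:**
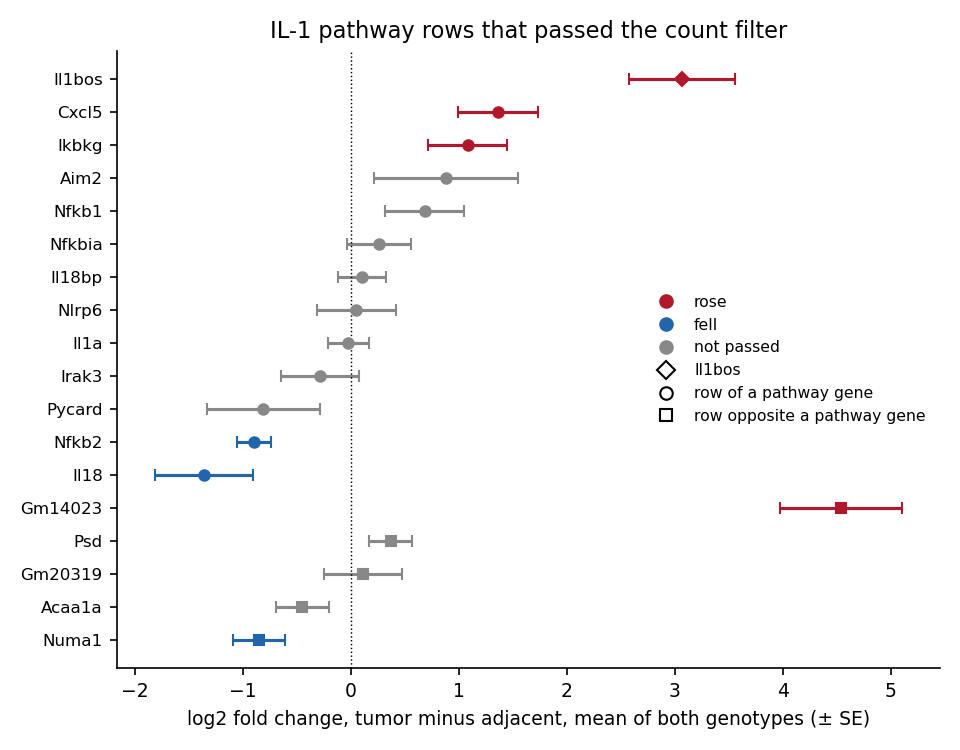
Log2 fold change of tumor over adjacent tissue, averaged over genotypes, with its SE, for Il1bos (diamond), 12 rows of interleukin-1 pathway genes (circles) and 5 rows opposite such genes (squares). Color gives the edgeR call at an adjusted p of 0.05. Il1bos at 3.07 and Gm14023 at 4.54 lie to the right of the 12 pathway rows shown, which passed the count filter. With no filter, some sparse pathway rows rose more than Il1bos.

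With no count filter, 72 of the pathway rows had at least 1 count and could be tested in tumors relative to adjacent tissue. Of these 12 rose and 5 fell by edgeR, against 7.21% and 8.36% of all 27672 rows with a count. The rows that rose were Cxcl1, Cxcl2, Cxcl3, Cxcl5, Csf3, Icam1, Lcn2, Mmp9, Mmp10, Mmp13, Il1rl1 and Map3k7, and those that fell were Il18, Casp1, Naip5, Naip6 and Nfkb2. They are named after their values were seen. Mmp10 (5.12), Mmp13 (4.03), Mmp9 (3.78), Il1rl1 (3.77), Cxcl2 (3.63), Lcn2 (3.55) and Cxcl1 (3.22) had larger log2 differences than Il1bos (3.07 with no filter). The other rows that rose had smaller ones. Cxcl1, a chemokine for neutrophils, had 34 counts in Erbb2-deficient tumors and 4 in control tumors, against 0 and 2 in the adjacent tissue of those genotypes. Cxcl2 had 17 and 3 counts in these tumors and none in adjacent tissue. Mmp10, a secreted protease, had 32 and 13 and none in adjacent tissue. Ptgs2, the inducible prostaglandin synthase, had 10 counts in Erbb2-deficient tumors and none in the other 3 groups, which left no usable fit for the averaged difference. Of 26 target rows under the filter, 23 had more counts in tumors than in adjacent tissue and none had fewer, against 46.7% with more among the 20553 such rows of all genes.

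The summed level of the 28 target rows had the same order of group means as Il1bos. It was 87.6 to 129.5 normalized CPM in Erbb2-deficient tumors and 23.6 to 75.2 in control tumors, which do not overlap. That contrast is the one that picked the pair. Of single rows tested, 0.927% separated the tumors in this direction, and no such share was computed for sums. Adjacent tissue had 24.5 to 40.5 in Erbb2-deficient mice and 16.8 to 31.1 in controls. Cxcl5 alone, with a mean of 39.4 in Erbb2-deficient tumors and 14.0 in control tumors, gave a large part of the sum. No test was made of this sum.

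Markers of cells that make interleukin-1β are given beside these values, with no test of their sums. Summed neutrophil markers, 18 rows, were at 12.6 to 32.0 normalized CPM in Erbb2-deficient tumors and 6.35 to 23.9 in control tumors, against 5.95 to 24.6 in Erbb2-deficient and 5.35 to 16.1 in control adjacent tissue. Of the 17 rows under the filter, 12 had more counts in tumors than in adjacent tissue, against 46.7% of the 20553 such rows of all genes. Another 2 had fewer and 3 were at 0 in all libraries (Retnlg, Ltf and Stfa2l1). More counts in tumors were also seen in 10 of 13 monocyte and macrophage rows and 10 of 11 B and T cell rows under the filter. Among dendritic rows it was 3 of 7. S100a9, an abundant neutrophil protein gene, had 24 counts in Erbb2-deficient and 8 in control tumors and none in adjacent tissue. Camp had 2 and 2 counts in these tumors and 6 and 7 in adjacent tissue, and Ly6g had 1 and 5 counts against 10 and 2. Cd177, the one neutrophil row tested, did not pass (log2 difference of tumor over adjacent tissue -0.63, edgeR adjusted p = 0.347). Summed monocyte and macrophage markers, 17 rows, were at 40.0 to 77.4 in Erbb2-deficient tumors, 39.6 to 108.0 in control tumors, 39.0 to 65.9 in Erbb2-deficient adjacent tissue and 36.7 to 60.5 in control adjacent tissue. The part of these cells in the Il1bos level was not tested. Dendritic markers were at 13.0 to 32.8 in Erbb2-deficient tumors and 15.6 to 84.4 in control tumors, and B and T cell markers at 5.29 to 9.68 and 1.90 to 162.5.

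Other tissue markers also moved. Summed smooth muscle markers were at 189.2 to 247.8 normalized CPM in Erbb2-deficient tumors and 161.6 to 511.4 in control tumors, against 1014 to 1327 and 1001 to 2447 in the adjacent tissue of those genotypes. Adjacent tissue thus held muscle RNA, and 7 of 8 of these rows fell in tumors, against 20.9% of all rows tested. Fibroblast markers were at 69.2 to 202.9 in Erbb2-deficient tumors and 28.1 to 101.2 in control tumors, and 3 of 5 tested rows rose in tumors relative to adjacent tissue by edgeR, against 21.0% of all rows tested. Epithelial markers were at 261.2 to 611.1 in Erbb2-deficient tumors and 15.4 to 850.8 in control tumors. The 15.4 was control tumor 2, with 17 counts, and the other control tumors had at least 198.2. Control tumor 2 was also the tumor with no Il1bos read. The part of these tissues in the Il1bos differences was not tested.

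**Figure D5:**
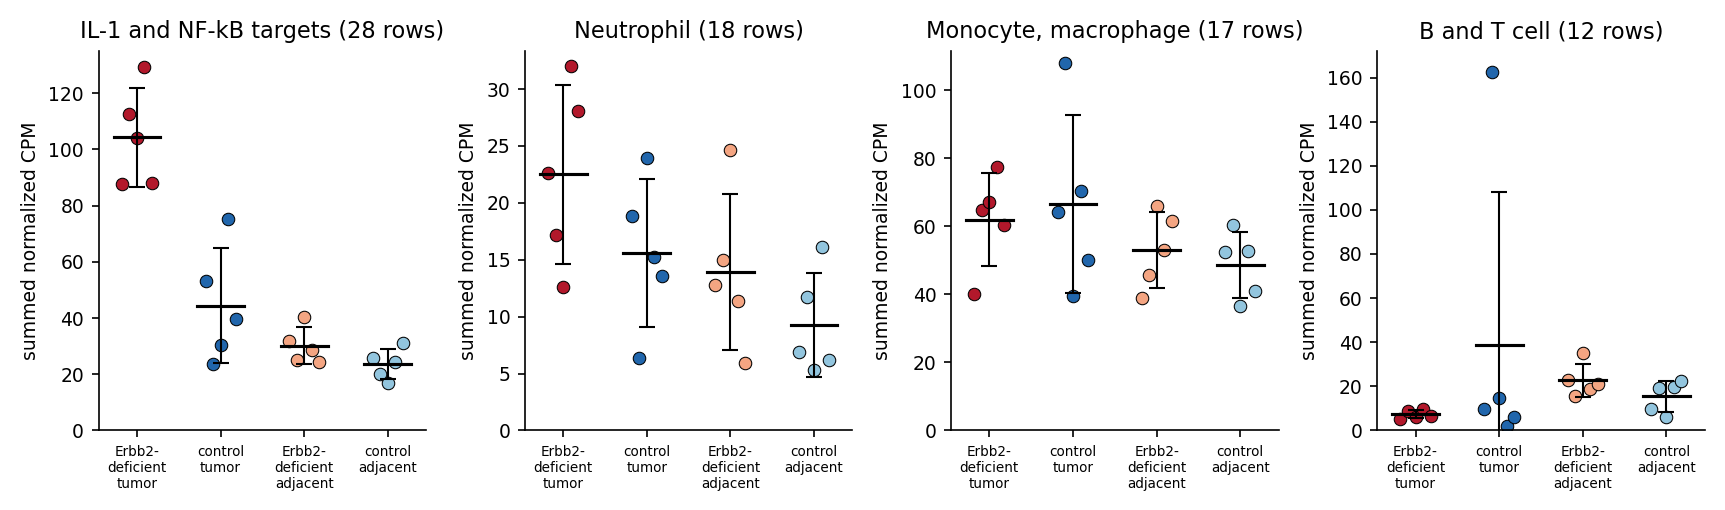
Summed normalized CPM of the target genes of interleukin-1 and NF-κB and of neutrophil, monocyte and macrophage, and B and T cell markers in 20 libraries. Points are libraries, bars the group mean and SD (n = 5). The target sums of Erbb2-deficient tumors (87.6 to 129.5) lie above those of control tumors (23.6 to 75.2), which was not tested. Of single rows tested, 0.927% separated the tumors in this direction. The neutrophil and macrophage sums overlap, and control tumor 2 stands out at 162.5 for B and T cell markers.

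The Tsix row, opposite Xist, was uneven between the genotypes. It exceeded 50 normalized CPM in 1 of 5 Erbb2-deficient tumors and 3 of 5 control tumors, with the same split in adjacent tissue. Among tumors over 50, Il1bos was at 10.8 in the Erbb2-deficient library and 0 to 6.44 in the 3 control libraries. Among tumors under 50, it was at 15.7 to 23.7 in 4 Erbb2-deficient libraries and 3.39 to 7.62 in 2 control libraries. The split was made after the values were seen, and as the Il1bos levels of the genotypes do not overlap in tumors, any split would keep their order. Xist is active in female cells, the labels give no sex, and the part of sex in the genotype differences was not tested.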

How the data were processed

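Counts per gene symbol were analysed as deposited, 1 file per library. Per the labels' protocols, total RNA was isolated with a Maxwell kit and sequenced after TruSeq Stranded mRNA preparation. Per the submitters' processing notes, Trimmomatic, HISAT2 2.2.1, HTSeq 2.0.2, DESeq2 and mm39 were used, and neither strand option nor annotation is named in the sources used here. Rows that name no gene (reads on no feature were 78.6% to 85.1% of a file) entered neither library sizes nor tests.

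Rows were filtered with filterByExpr (minimum count 10), which kept 7119 of 46329, and fitted with edgeR 4.0.16 in R 4.3.3 (TMM, robust quasi-likelihood, means model of the 4 groups, all 20 libraries). P-values were adjusted with Benjamini-Hochberg at 0.05 over all rows tested, and log2 CPM was computed with 2 as the prior count. The SE is the log2 fold change over the square root of F. Il1b, under the filter, was tested by exact permutation. Count intervals are exact at 95%, and a count of 0 allows 3 counts. Depth was 1071737 to 1944309 gene counts per library, so a row of 1 to 5 reads has large counting error. GENCODE M21 (GRCm38) matched 34632 symbols and gave the overlaps of genes. Promoter windows came from RefSeq (GRCm38.p6), with both members matched. The likeness rule named the 10 tested rows of highest Pearson r with Il1bos, and each pathway list named up to 4 tested members of smallest p, with other rows named after their values were seen. The members, lists and motifs were chosen with earlier results of these data known. In simulated counts, 94.9% of genes changed 4-fold and 52.1% of those changed 2-fold were called for tumor against adjacent tissue (6835 genes, 5 false calls), and 64.6% and 12.4% for genotype in adjacent tissue (6863 genes, 3 false calls). These shares come from few changed genes and average over genes of all levels. They do not tell how often a change of a row as sparse as Il1bos in adjacent tissue would be called. Il1b, under the filter, is not covered by them. Alternatives were other scalings, filters, DESeq2 1.42.0, replicate blocks and left-out libraries.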

Additional observations from a re-analysis of the deposited data

Results flagged for a closer look

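Of 48 groups of values examined, 4 held a library far from the others, where chance alone flags about 1 in 20. Control tumor 2 had 84.4 summed normalized CPM of dendritic cell markers, against 33.3 in the next control tumor. The same library had 162.5 summed normalized CPM of B and T cell markers, against 14.7 in the next. Its median Spearman correlation with its own group was 0.636, against 0.820 for the next library. Control tumor 2 is also the tumor with no Il1bos read. Control tumor 3 had 511.4 summed normalized CPM of smooth muscle markers, against 219.0 in the next control tumor. No library was set apart in this way by Il1bos or Il1b.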

How the results depend on the processing

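Il1bos rose in tumors relative to adjacent tissue under each of 29 alternatives, with log2 fold changes of 2.90 to 3.34 and adjusted p of 2.41e-07 to 0.00105. All of these reruns used tumors that picked the pair. They show dependence on the processing only, and their p-values are not free of that choice. In adjacent tissue the genotype difference of Il1bos kept its direction, at 1.91 to 2.75, and stayed above the threshold in the adjusted tests (0.352 to 1). The exact permutation of this row alone gave a difference of 1.63 CPM with p = 0.0238, not adjusted over other rows, and the cause of the difference in calls is the missing adjustment. Rows called for genotype in adjacent tissue numbered 0, against 1 with no filter, 1 without control tumors 2 and 3, 5 with DESeq2, 1 with DESeq2 and no filter (added after the data were seen) and 0 to 2 with 1 library left out. Pathway rows called in tumors numbered 4, against 17 with no filter (12 up, 5 down) and 15 with DESeq2 and no filter (9 up, 6 down), where 72 rows were tested in place of 12. Without the filter or with DESeq2 and no filter, rows called in tumors over all genes numbered 4307 and 4341, against 2982. The Il1bos share of the pair stayed between 79.2% and 82.2% with any library left out. Gm14023 kept its call under all 29 alternatives run for it. The labels do not tie equal replicate numbers to a mouse, and the data did not settle it: 6 of 10 tumor and adjacent pairs had r over 0.1, with a range of -0.116 to 0.37, and 4 of 10 tumors correlated best with their own number, while in 10 of 10 pairs both libraries lay on the same side of 50 normalized CPM of Tsix. With libraries of 1 genotype and number taken as 1 mouse, Il1bos had a log2 fold change of 3.01 in tumors (edgeR adjusted p = 0.00105). With the number alone as a block, it had 2.22 for genotype in adjacent tissue (edgeR adjusted p = 0.797). Neither block changed a call for Il1b. Depth limits every genotype value in adjacent tissue, where Il1bos had 16 reads in all.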
